A study of Homo sapiens with 4 samples.

Results

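The genes described here are those of the integrated stress response and the unfolded protein response, in triple-negative breast cancer (TNBC) cells treated with mebendazole (MBZ). They were taken as a list of 41 gene symbols and matched by Ensembl identifier to 41 of the 58735 genes in the count table. The list rests on gene function, but it was drawn up with earlier results of these data known. The list has an ATF4 arm of 22 genes, made of the transcription factor ATF4, its partners and its targets, and an endoplasmic reticulum (ER) arm of 19 genes, made of stress sensors, chaperones and genes of ER-associated degradation. RNA was sequenced from 4 cultures: MDA-MB-231 cells with DMSO, MDA-MB-231 cells with 1 μM MBZ, SUM159 cells with DMSO and SUM159 cells with 1 μM MBZ, each for 72 h. MDA-MB-231 and SUM159 are established human TNBC cell lines, DMSO is the vehicle, and MBZ is an anthelmintic drug that binds tubulin.

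Cells meet several kinds of stress by phosphorylating the translation factor eIF2. This lowers protein synthesis in general but raises translation of ATF4 messenger RNA, and ATF4 protein then switches on genes for amino acid supply, redox balance and, when stress lasts, cell death. Unfolded proteins in the ER are sensed by PERK (gene EIF2AK3), which is one of the eIF2 kinases, and by IRE1 (gene ERN1) and ATF6, which act through spliced XBP1 and cleaved ATF6 on genes for chaperones and for the removal of misfolded proteins. Phosphorylation, XBP1 splicing, ATF6 cleavage and ATF4 translation are not seen in counts per gene, so the values below are messenger RNA levels only.

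The promoters are shown first, with the motifs that ATF4 and the factors of the unfolded protein response are known to bind. A C/EBP-ATF response element (CARE) was searched as TGATGNAA, an ER stress response element (ERSE) as CCAAT and CCACG with 9 bases between them, and an unfolded protein response element (UPRE) as TGACGTGG, each on both strands, in windows from 250 bases before to 50 bases after each RefSeq start site. The reverse of the UPRE holds CCACG, so those matches can overlap in principle. Windows were given for 38 of the members, all but NUPR1, PSPH and SHMT2, and a gene counted once when any of its windows held the motif. An ERSE was found in 7 of 19 ER arm genes (36.8%), in none of 19 ATF4 arm genes with a window, and in 25 of the 27305 genes of the promoter table (0.0916%). A CARE was found in 4 of the 19 ATF4 arm genes (21.1%), namely ASNS, CEBPG, CHAC1 and SLC3A2, in 1 ER arm gene, HERPUD1, and in 4.46% of all genes. No member held a UPRE, which 0.927% of all genes did. A match is a description of the letters and not a bound site.

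The windows of 4 genes are printed 5′ to 3′ on the strand of the gene, with the motif in capitals (RefSeq, GRCh38.p14). The first pair holds an ERSE. HSPA5 lies on the minus strand (window chr9:125241294-125241593, ERSE beginning 66 bases before the start) and encodes BiP, the main chaperone of the ER. CRELD2 lies on the plus strand (window chr22:49918384-49918683, ERSE in reverse, first base 80 before the start) and encodes a secreted ER protein.
HSPA5: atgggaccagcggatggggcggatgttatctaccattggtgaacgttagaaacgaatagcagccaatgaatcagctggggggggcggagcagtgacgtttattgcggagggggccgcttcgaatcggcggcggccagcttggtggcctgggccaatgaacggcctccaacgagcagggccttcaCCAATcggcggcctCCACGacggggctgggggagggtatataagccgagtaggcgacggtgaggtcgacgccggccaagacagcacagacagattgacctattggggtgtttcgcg
CRELD2: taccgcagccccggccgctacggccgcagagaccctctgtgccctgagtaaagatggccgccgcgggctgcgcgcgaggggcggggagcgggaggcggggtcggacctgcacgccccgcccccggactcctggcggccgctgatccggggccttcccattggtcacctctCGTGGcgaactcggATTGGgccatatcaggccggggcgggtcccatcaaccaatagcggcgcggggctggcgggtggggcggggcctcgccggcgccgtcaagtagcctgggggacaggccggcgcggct

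The second pair holds a CARE. CEBPG lies on the plus strand (window chr19:33373863-33374162, CARE beginning 42 bases before the start) and encodes a partner of ATF4. CHAC1 lies on the plus strand (window chr15:40953221-40953520, CARE in reverse, first base 209 before the start) and encodes an enzyme that breaks down glutathione.
CEBPG: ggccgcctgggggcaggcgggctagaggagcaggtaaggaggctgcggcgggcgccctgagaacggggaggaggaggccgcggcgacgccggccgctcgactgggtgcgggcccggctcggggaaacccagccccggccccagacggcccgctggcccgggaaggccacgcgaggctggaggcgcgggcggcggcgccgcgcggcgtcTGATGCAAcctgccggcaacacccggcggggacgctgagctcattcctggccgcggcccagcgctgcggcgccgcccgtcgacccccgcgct
CHAC1: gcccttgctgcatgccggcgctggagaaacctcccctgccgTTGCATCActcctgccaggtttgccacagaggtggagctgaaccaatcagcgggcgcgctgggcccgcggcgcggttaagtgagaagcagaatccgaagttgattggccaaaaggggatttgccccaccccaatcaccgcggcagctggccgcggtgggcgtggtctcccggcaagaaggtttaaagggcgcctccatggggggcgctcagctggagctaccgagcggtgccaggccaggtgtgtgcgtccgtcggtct

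The libraries held between 17143139 and 24897586 counts, and each of the 41 members averaged 10 counts or more within each line. Levels are given as CPM, the usual depth-scaled count, with library sizes corrected by TMM (trimmed mean of M-values) over the 4 libraries. With 1 library per condition there is no spread between cultures, so a change within a line carries no p-value, and the 95% intervals given here cover counting error of reads only. PCR copies of a molecule cannot be told from separate molecules, so these intervals may be too narrow for a count of molecules. In RNA from a whole culture, a change in the share of cells of one state and a change in RNA per cell cannot be told apart. The labelled cell type was checked by markers: PGR had 0 counts in every library, ESR1 had 0 to 18, CDH1 had 0 to 12 and EPCAM had 6 to 190, against 20703 to 54409 for VIM, a mesenchymal filament gene, and 1216 to 1996 for ERBB2. Of 10 genes of dividing cells, MDA-MB-231 had 9 that were 1.5-fold or more lower after MBZ, and SUM159 had all 10 that much higher. Their summed level went from 2850 to 1540 CPM in MDA-MB-231 and from 337 to 1380 CPM in SUM159, and its part in the results below was not tested.

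Without MBZ, most of the ER arm differed little in level between the lines, and the ATF4 arm held genes that stood far apart. In the ER arm, 18 of 19 genes differed by less than 2-fold between the DMSO libraries and none differed by 4-fold. In the ATF4 arm, 12 of 22 genes differed by less than 2-fold, 5 were at least 4-fold higher in SUM159 and 2 at least 4-fold higher in MDA-MB-231. Of all 15559 genes with enough counts, 56.8% differed by less than 2-fold, a share near that of the ATF4 arm, and 11.8% and 10.9% were past 4-fold in these directions.

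STC2, which encodes the secreted glycoprotein stanniocalcin 2, was 69.2-fold higher in SUM159 DMSO cells than in MDA-MB-231 DMSO cells. NUPR1, a stress-induced nuclear protein, was 16.6-fold higher, and GDF15, a secreted cytokine of the TGF-β family, was 9.41-fold higher. CEBPB and PHGDH were also higher in SUM159, by 4.82-fold and 4.53-fold. In the opposite direction, VLDLR, a lipoprotein receptor, was 13.9-fold higher in MDA-MB-231 and PSAT1, an enzyme of serine synthesis, 5.23-fold higher. PHGDH and PSAT1, neighbouring steps of serine synthesis, thus stood apart between the lines in opposite directions.

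**Figure D1:**
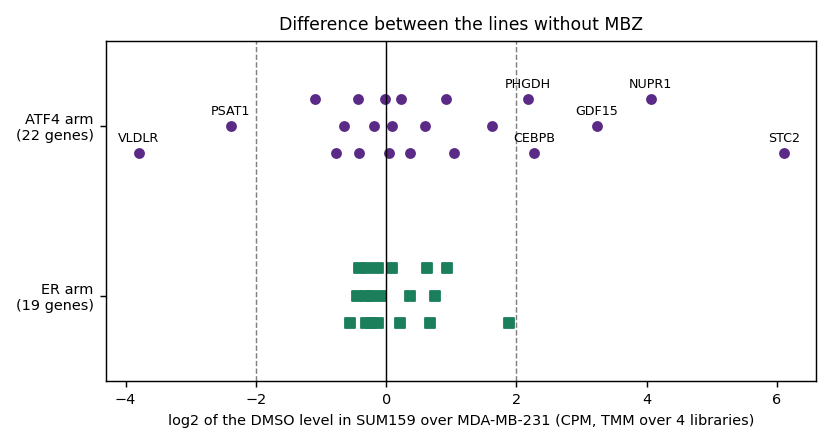
Level in the SUM159 DMSO library over that in the MDA-MB-231 DMSO library on the log2 scale, 1 point per gene, in the ATF4 arm (circles) and the ER arm (squares), with dashed lines at 4-fold. The 7 named genes past 4-fold all lie in the ATF4 arm, and the ER arm gene farthest out is ERN1, 3.71-fold higher in SUM159.

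Levels of different genes were compared as CPM per kb of the union of exons. CALR, the lectin chaperone calreticulin, was the highest member in all 4 libraries on this scale, at 467 and 500 CPM per kb in MDA-MB-231 (DMSO, then MBZ) and at 319 and 303 in SUM159. ATF4 followed in the MDA-MB-231 DMSO library at 148 CPM per kb, while HSPA5 followed in the MDA-MB-231 MBZ library at 452. In both SUM159 libraries CEBPB followed, at 251 and 225 CPM per kb. ASNS is left out of the order because its reads are shared with another gene, and of the others STC2 was lowest in the MDA-MB-231 DMSO library, at 0.425 CPM per kb, and VLDLR in the SUM159 DMSO library, at 0.139. The order depends on the length used. Per kb of the canonical transcript, HSPA5 was first in the MDA-MB-231 MBZ library, at 753 against 737 CPM per kb for CALR, and ATF4 (411) and GDF15 (300) came after CALR in the SUM159 DMSO and MBZ libraries, ahead of CEBPB. How far neighbours in this order differ beyond the spread between cultures could not be measured.

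After MBZ, part of the ATF4 arm was higher in MDA-MB-231 and in SUM159 cells, whereas most ER arm genes were higher in MDA-MB-231 cells and few were in SUM159 cells. A gene was counted as higher or lower at a fold change of at least 1.5, with TMM scaling within the line. In MDA-MB-231, 12 of 22 ATF4 arm genes were higher and 1 lower, and 14 of 19 ER arm genes were higher and none lower, where 18.3% of all 15142 genes with enough counts were higher and 15.8% lower. In SUM159, 11 ATF4 arm genes were higher and 2 lower, and 3 ER arm genes were higher and 1 lower, where 21.5% of 15674 genes were higher and 21.7% lower. The nearness of the ATF4 arm counts, 12 and 11, depended on the threshold: 11 genes were higher in MDA-MB-231 and 7 in SUM159 at 2-fold, and 12 and 8 had counting intervals wholly beyond 1.5-fold. At 2-fold the ER arm had 8 genes higher in MDA-MB-231 and 1 in SUM159. The median log2 fold change was 0.98 in the ATF4 arm and 0.94 in the ER arm in MDA-MB-231, against -0.018 over all genes there. In SUM159 it was 0.58 in the ATF4 arm and -0.016 in the ER arm, against -0.034 over all genes.

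These medians depend on the scaling and, in the ATF4 arm, on the count minimum. With a mean of at least 100 counts, the ATF4 arm medians were 0.67 in MDA-MB-231 and 0.36 in SUM159. Division by total counts alone shifted the all-gene median on the log2 scale by 0.27 (MDA-MB-231) and 0.30 (SUM159), and moved the medians of the arms with it, to 1.25 and 1.20 in MDA-MB-231 and to 0.88 and 0.29 in SUM159. Under that scaling 16 of 19 ER arm genes were above their DMSO level in SUM159, in place of 9 of 19, as were 65.3% of all genes in place of 48.1%, and calls in that arm were 4 higher and 0 lower.

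**Figure D2:**
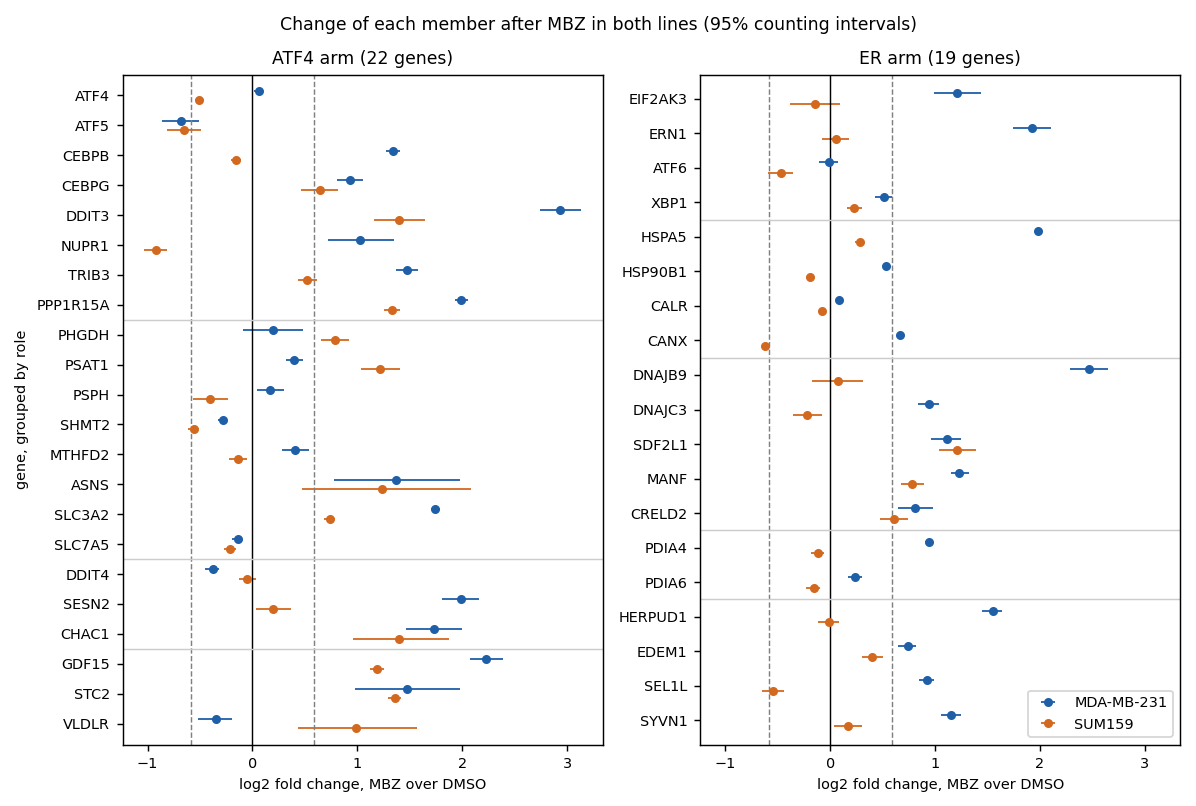
log2 fold change (MBZ over DMSO) of each member in MDA-MB-231 and SUM159, with 95% counting intervals, the ATF4 arm at left and the ER arm at right, genes grouped by role and dashed lines at 1.5-fold in either direction. In MDA-MB-231, 26 of the 41 points lie above the upper line, and in SUM159, 14 of 41 do, 3 of them in the ER arm.

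The transcription factors and feedback genes of the ATF4 arm did not move as a block. ATF4 itself (chr22:39519695-39522683, 3 exons) had 387 and 408 CPM in MDA-MB-231 (DMSO, then MBZ) and 584 and 411 CPM in SUM159. It was thus level in MDA-MB-231, with a log2 fold change of 0.06, and lower in SUM159, at -0.51, short of 1.5-fold. ATF5, a related factor of the same family, had 32.8 and 20.7 CPM in MDA-MB-231 and 42.4 and 27.0 CPM in SUM159, which is 1.61-fold and 1.57-fold lower after MBZ. It was the only member past 1.5-fold lower in both lines, as were 4.71% of all 13733 genes with enough counts in both, but with total counts alone it was short of that, at log2 fold changes of -0.42 and -0.35.

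DDIT3 (chr12:57516588-57521737, minus strand), which encodes the pro-apoptotic factor CHOP, was the member with the largest fold change. It had 11.0 and 84.9 CPM in MDA-MB-231 and 10.8 and 28.6 CPM in SUM159, DMSO first and MBZ next as in all pairs of levels here. The DMSO levels were alike, and the MBZ libraries were 7.64-fold and 2.65-fold above them (log2 fold changes 2.93, interval 2.74 to 3.13, and 1.40, interval 1.16 to 1.65). Of the 903 bases of its canonical transcript, 105 are shared with another gene of the table on the same strand and 219 face genes on the other strand, and the strand setting of the counting is not given.

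PPP1R15A (chr19:48872212-48876059), which encodes GADD34, the subunit that directs dephosphorylation of eIF2, had 102 and 409 CPM in MDA-MB-231 and 108 and 270 CPM in SUM159. These again were near equal DMSO levels with MBZ libraries 3.98-fold and 2.51-fold above. TRIB3, a pseudokinase that damps CHOP and ATF4 activity, had 45.6 and 128 CPM in MDA-MB-231 and 86.5 and 124 CPM in SUM159. Its level after MBZ was near the same in both lines, and its change was 2.77-fold in MDA-MB-231 and 1.44-fold in SUM159. The latter was short of the 1.5-fold used here, but past it with total counts alone (log2 fold change 0.82).

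The C/EBP factors that pair with ATF4 differed. CEBPG had 40.9 and 78.9 CPM in MDA-MB-231 and 24.0 and 37.3 CPM in SUM159, a change of 1.90-fold and 1.56-fold. CEBPB had 95.8 and 246 CPM in MDA-MB-231 and 462 and 414 CPM in SUM159, so that the MDA-MB-231 library was 2.53-fold higher after MBZ while the SUM159 libraries, both above it, were at a log2 fold change of -0.16. NUPR1 had 5.94 and 12.3 CPM in MDA-MB-231 and 98.7 and 52.1 CPM in SUM159, so that it was 2.05-fold higher after MBZ in the line with the low level and 1.89-fold lower in the line with the high level.

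**Figure D3:**
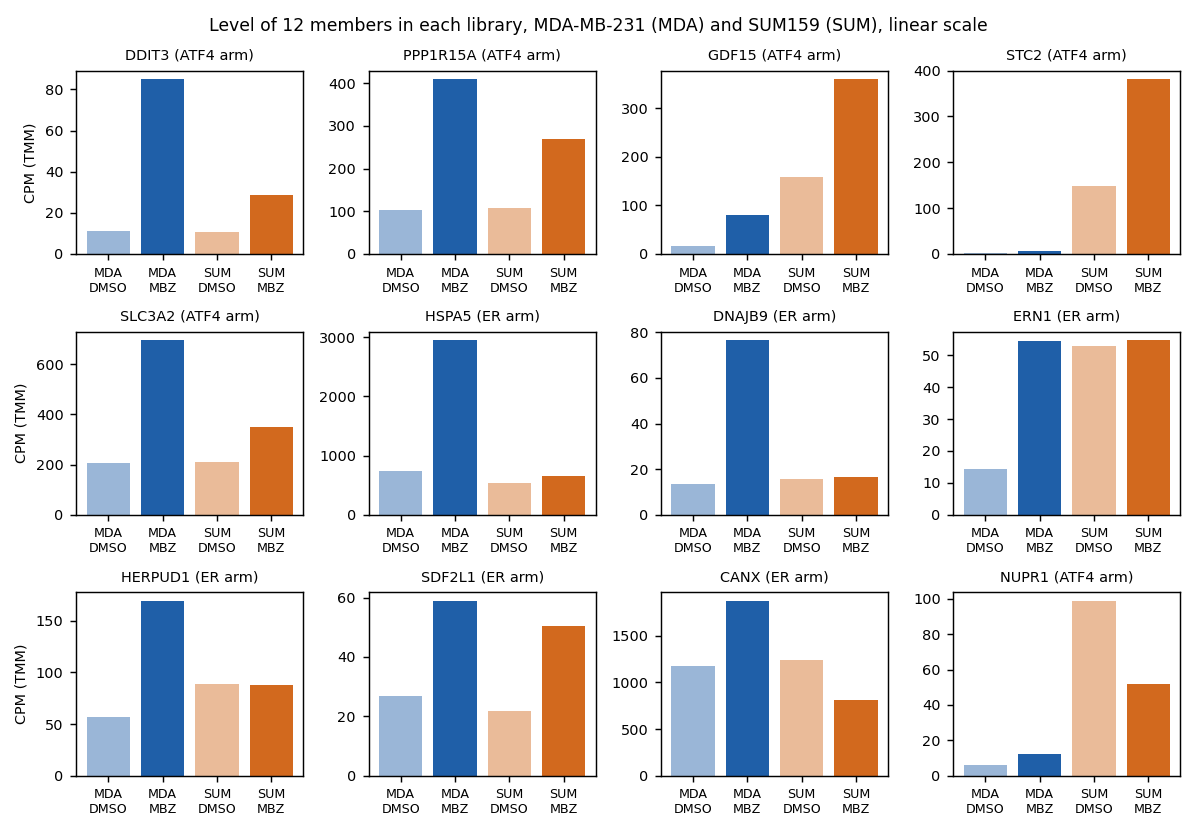
Level of 12 members in CPM (bars from 0, linear scale, pale for DMSO and dark for MBZ), with 1 library per bar. DDIT3, PPP1R15A, GDF15, STC2, SLC3A2 and SDF2L1 stand higher after MBZ in both lines, HSPA5, DNAJB9, ERN1 and HERPUD1 do so in MDA-MB-231 and lie between 0.989 and 1.22 times their DMSO level in SUM159, and CANX and NUPR1 go in opposite directions.

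The genes of amino acid supply were the role of the ATF4 arm with the smallest median change in MDA-MB-231, 0.30 on the log2 scale over 8 genes, and 0.30 in SUM159 as well. SLC3A2, the heavy chain shared by several amino acid exchangers, had 205 and 696 CPM in MDA-MB-231 and 211 and 352 CPM in SUM159. From near equal DMSO levels it was 3.35-fold and 1.67-fold higher after MBZ. Its light chain partner SLC7A5 was not, at log2 fold changes of -0.14 and -0.21.

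Serine synthesis differed between its steps and between the lines. PHGDH, the first enzyme, had 9.21 and 10.7 CPM in MDA-MB-231 and 41.7 and 71.9 CPM in SUM159, and PSAT1, the next, had 102 and 136 CPM in MDA-MB-231 and 19.4 and 45.3 CPM in SUM159. Both were past 1.5-fold in SUM159 alone, at 1.72-fold and 2.33-fold, against 1.15-fold and 1.32-fold in MDA-MB-231. PSAT1 was also past it in MDA-MB-231 with total counts alone (log2 fold change 0.67). The difference of the log2 fold changes, MDA-MB-231 minus SUM159, was -0.59 (counting interval -0.90 to -0.28) for PHGDH and -0.82 (-1.02 to -0.62) for PSAT1, and it was not tested against a spread between cultures. PSPH, the last enzyme, and the mitochondrial folate enzymes SHMT2 and MTHFD2 lay between -0.56 and 0.41 in both lines, none past 1.5-fold. MTHFD2 was past it in MDA-MB-231 with total counts alone (0.68). Reads of MTHFD2 are uncertain where 1619 of the 4403 bases of its canonical transcript face a gene on the other strand.

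ASNS, which makes asparagine, had only 36 and 77 counts in MDA-MB-231 (DMSO, then MBZ) and 19 and 56 in SUM159. Its fold changes of 2.58 and 2.36 therefore have wide intervals on the log2 scale, 0.78 to 1.98 and 0.47 to 2.08. Of the 2385 bases of its canonical transcript, 2374 are shared with a long non-coding RNA on the same strand that is also a row of the table, and counting in union mode leaves out reads that fall in 2 genes, so its level is not a measure of ASNS expression.

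Among the growth brakes, SESN2, a sestrin that restrains mTORC1 signalling, had 14.8 and 59.5 CPM in MDA-MB-231 and 30.5 and 35.1 CPM in SUM159. It was 3.96-fold higher after MBZ in the former and 1.15-fold in the latter. DDIT4, which restrains the same pathway, was not higher in either line, at log2 fold changes of -0.38 and -0.05. CHAC1 had 6.97 and 23.4 CPM in MDA-MB-231 and 3.26 and 8.63 CPM in SUM159, or 3.31-fold and 2.64-fold higher after MBZ from 162 and 54 counts in the DMSO libraries.

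The secreted products and the receptor VLDLR had the highest median log2 fold change of the roles in SUM159, 1.19, beside 1.47 in MDA-MB-231. GDF15 (chr19:18374731-18389176, 2 exons) had 16.8 and 79.6 CPM in MDA-MB-231 and 158 and 360 CPM in SUM159. The SUM159 DMSO library was thus above the MDA-MB-231 MBZ library, and the changes were 4.69-fold and 2.28-fold. STC2 had 2.15 and 6.05 CPM in MDA-MB-231 and 149 and 381 CPM in SUM159. The lines kept their wide separation, and the changes of 2.77-fold and 2.56-fold did not differ beyond counting error, with a difference of log2 fold changes of 0.12 (counting interval -0.37 to 0.60). VLDLR was lower in MDA-MB-231, at -0.35 on the log2 scale, and 1.98-fold higher in SUM159, where it rests on 38 and 94 counts.

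In the ER arm, the sensor genes ERN1 and EIF2AK3 were higher after MBZ in MDA-MB-231 and near their DMSO level in SUM159. ERN1 had 14.2 and 54.4 CPM in MDA-MB-231 (DMSO, then MBZ) and 52.8 and 54.7 CPM in SUM159. The MDA-MB-231 level after MBZ was thus close to that of SUM159 with or without MBZ, and the fold changes were 3.78 and 1.04. EIF2AK3 had 10.5 and 24.6 CPM in MDA-MB-231 and 16.8 and 15.2 CPM in SUM159, 2.32-fold higher in the former and at 0.904 times its DMSO level in the latter. ATF6 and XBP1 were not past 1.5-fold in either line, at log2 fold changes of -0.02 and -0.47 for ATF6 and 0.51 and 0.23 for XBP1. XBP1 was past it in MDA-MB-231 with total counts alone (0.78).

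HSPA5 (chr9:125234853-125241382, minus strand, 8 exons) made up the largest part of the difference in summed level of the ER arm in MDA-MB-231. It had 738 and 2950 CPM in MDA-MB-231 and 541 and 658 CPM in SUM159. The MDA-MB-231 MBZ library stood apart from the other 3, with a fold change of 3.95 (log2 1.98, interval 1.96 to 2.01), against 1.22 in SUM159 (log2 0.28, interval 0.24 to 0.32). The summed level of the ER arm went from 5180 to 9600 CPM in MDA-MB-231 and from 4670 to 4270 CPM in SUM159, and that of the ATF4 arm from 2170 to 3370 and from 3120 to 3490 CPM.

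The other chaperones moved less. HSP90B1, the ER form of HSP90, had log2 fold changes of 0.53 (MDA-MB-231) and -0.19 (SUM159), and CALR 0.08 and -0.07, none past 1.5-fold. HSP90B1 was past it in MDA-MB-231 with total counts alone (0.80). CANX, the membrane-bound relative of CALR, had 1170 and 1870 CPM in MDA-MB-231 and 1240 and 809 CPM in SUM159. From near equal DMSO levels it was 1.58-fold higher after MBZ in MDA-MB-231 and 1.54-fold lower in SUM159, the latter short of 1.5-fold with total counts alone (log2 fold change -0.32).

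Each of the 5 co-chaperones and secreted ER proteins was higher in MDA-MB-231 by 1.5-fold or more. DNAJB9, a co-chaperone of BiP also called ERdj4, had 13.6 and 76.5 CPM in MDA-MB-231 and 15.8 and 16.5 CPM in SUM159, with a fold change of 5.54 in the former, the largest of the ER arm, and of 1.05 in the latter. DNAJC3, a BiP co-chaperone also called p58IPK, had 57.0 and 111 CPM in MDA-MB-231 and 46.3 and 39.8 CPM in SUM159. In both cases the MDA-MB-231 library with MBZ stood above the other 3.

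SDF2L1, MANF and CRELD2 were the ER arm genes past 1.5-fold higher in both lines. SDF2L1, a component of the ER chaperone complex, had 27.0 and 58.8 CPM in MDA-MB-231 and 21.8 and 50.5 CPM in SUM159, or 2.15-fold and 2.32-fold. MANF, a secreted survival factor kept in the ER at rest, had 67.8 and 161 CPM in MDA-MB-231 and 57.4 and 98.4 CPM in SUM159, or 2.35-fold and 1.72-fold. CRELD2 had 21.8 and 38.7 CPM in MDA-MB-231 and 41.9 and 63.8 CPM in SUM159, or 1.75-fold and 1.52-fold. For SDF2L1 and MANF both MBZ libraries stood above both DMSO libraries, while the CRELD2 level of SUM159 without MBZ was above that of MDA-MB-231 with it. The differences of the log2 fold changes between the lines were -0.10 (counting interval -0.33 to 0.12) for SDF2L1 and 0.20 (-0.01 to 0.41) for CRELD2, within counting error, and 0.46 (0.31 to 0.60) for MANF.

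Of the disulfide isomerases, PDIA4 had 361 and 699 CPM in MDA-MB-231 and 272 and 250 CPM in SUM159, 1.91-fold higher after MBZ in the former. PDIA6 was at log2 fold changes of 0.24 and -0.16, and 1033 of the 2279 bases of its canonical transcript face a gene on the other strand. All 4 genes of ER-associated degradation were past 1.5-fold higher in MDA-MB-231 and none was in SUM159, though EDEM1 was with total counts alone (log2 fold change 0.70). HERPUD1, which gathers the retrotranslocation complex, had 57.1 and 169 CPM in MDA-MB-231 and 88.6 and 87.7 CPM in SUM159, a fold change of 2.92 against 0.989.

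The ubiquitin ligase of that complex, SYVN1, had 60.7 and 137 CPM in MDA-MB-231 and 49.1 and 55.0 CPM in SUM159, and EDEM1, a lectin-like protein that directs glycoproteins to it, had 90.3 and 152 CPM in MDA-MB-231 and 83.3 and 110 CPM in SUM159. Their fold changes were 2.22 and 1.67 in MDA-MB-231 and 1.12 and 1.32 in SUM159. SEL1L, the partner of SYVN1, had 115 and 219 CPM in MDA-MB-231 and 97.1 and 66.5 CPM in SUM159, 1.89-fold higher in the former and 1.46-fold lower in the latter.

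The 7 ER arm genes with an ERSE in a promoter window (CALR, CANX, CRELD2, HSP90B1, HSPA5, PDIA6 and XBP1) did not share 1 pattern. In MDA-MB-231 HSPA5, CRELD2 and CANX were past 1.5-fold higher and the other 4 lay between 0.08 and 0.53 on the log2 scale. In SUM159 CRELD2 alone was past 1.5-fold higher. Of all 19 ER arm genes, 14 were that much higher in MDA-MB-231 and 3 in SUM159, against 18.3% and 21.5% of all genes. Of the 5 members with a CARE, CEBPG and CHAC1, whose windows are printed above, and SLC3A2 were past 1.5-fold higher in both lines, HERPUD1 was in MDA-MB-231 but not in SUM159, and ASNS is not read here because of its overlap. DDIT3, PPP1R15A, GDF15 and STC2, whose windows held no CARE, were also past 1.5-fold higher in both lines. Of all genes, 6.12% were at least 1.5-fold higher in both lines. These are counts, and no test was run on them.

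Members past 1.5-fold in both lines were then counted. In the ATF4 arm 8 of 22 genes were at least 1.5-fold higher in both lines (CEBPG, DDIT3, PPP1R15A, ASNS, SLC3A2, CHAC1, GDF15 and STC2), and in the ER arm 3 of 19, where 6.12% of all genes were. Without ASNS, whose level is not a measure of its expression, 7 ATF4 arm genes remained. NUPR1 and CANX were past 1.5-fold in opposite directions, as were 6.04% of all genes. The change in MDA-MB-231 was at least 1.5-fold above that in SUM159 for 11 of 19 ER arm genes and 8 of 22 ATF4 arm genes, against 24.2% of all genes. The reverse held for 0 and 3 genes (PHGDH, PSAT1 and VLDLR), against 21.3% of all genes. The median difference of the log2 fold changes, MDA-MB-231 minus SUM159, was 0.99 in the ER arm, 0.44 in the ATF4 arm and 0.035 over all genes. The difference between the arms was not tested.

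The widest differences between the lines were those of DNAJB9, at 2.40 (counting interval 2.11 to 2.69), NUPR1, at 1.95 (1.63 to 2.28), ERN1, at 1.87 (1.65 to 2.08), and SESN2, at 1.78 (1.54 to 2.02). Across genes, Spearman's rho between the fold changes of the lines was 0.63 over the 22 ATF4 arm genes, 0.40 over the 19 ER arm genes and 0.17 over all genes with enough counts in both. Genes are not independent replicates, and the points share the same 4 libraries.

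**Figure D4:**
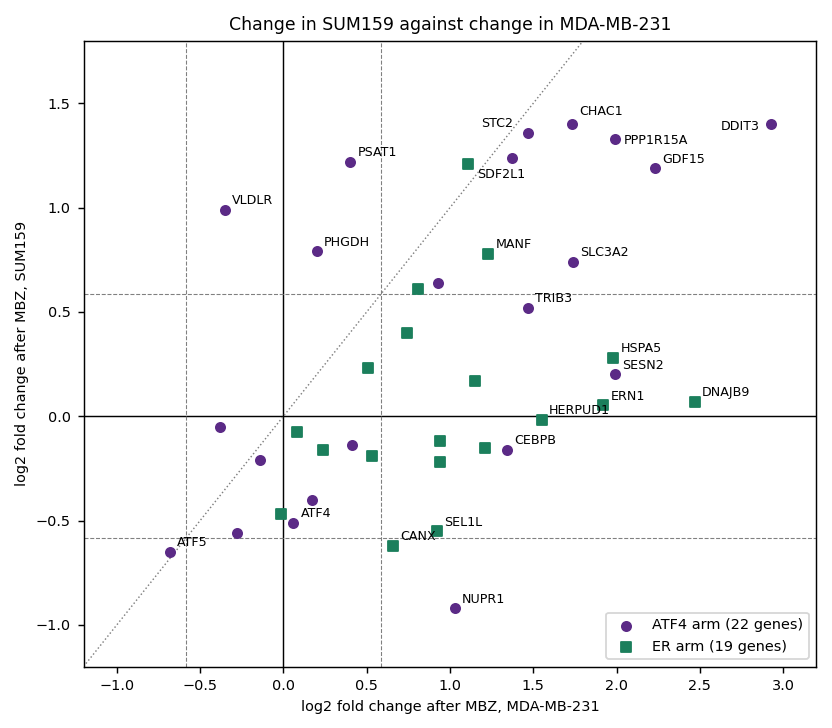
log2 fold change after MBZ in SUM159 against that in MDA-MB-231, 1 point per gene, for the ATF4 arm (circles) and the ER arm (squares), with dashed lines at 1.5-fold and a dotted line of equal change. The signed log2 fold change was above that of SUM159 in MDA-MB-231 for 35 of the 41 members and 51.9% of all genes, and 8 ATF4 arm and 3 ER arm genes lie past 1.5-fold in the upper right.

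A change shared by both lines was tested across 16100 genes with edgeR's quasi-likelihood test, with the lines standing in for replicates, so that its spread is how far their responses differ. No member was called at an adjusted p under 0.05, a level that 1 gene of the table reached (0.00621%). With 1 library per condition in each line the test is weak, so a member that was not called may still change in both lines. At an unadjusted p under 0.05, 10 of 22 ATF4 arm genes and 3 of 19 ER arm genes were higher and none lower, against 3.91% of all genes higher and 3.24% lower. The lowest adjusted p of a member was 0.441 in the edgeR fit, for DDIT3 (shared log2 fold change 2.21), PPP1R15A (1.70), GDF15 (1.74) and STC2 (1.45), all higher in both lines. DESeq2's Wald test called these 4 members, with adjusted p of 0.0157, 0.00642, 0.0202 and 0.0356, and 0.305% of the 14763 genes it gave an adjusted p were called higher. Without a filter on low counts, edgeR called the same 4 members and 0.474% of 32295 genes higher, while RLE normalization or a fit without the cell line called none. The other 9 members past the unadjusted level were CEBPG, TRIB3, PSAT1, SLC3A2, SESN2, CHAC1, SDF2L1, MANF and CRELD2.

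Other genes of the same pathways were counted from lists that hold no members. Of 12 genes for the other eIF2 kinases, the second phosphatase subunit and the subunits of eIF2 and eIF2B, none was past 1.5-fold higher in either line and 1 was lower in SUM159, EIF2S3, named here after its values were seen, at a log2 fold change of -1.14. Of 20 other ATF4 targets, MDA-MB-231 had 6 higher and 0 lower among 19 with enough counts, and SUM159 had 4 higher and 4 lower among 18, the latter close to the shares over all genes given above. Of 30 other genes of ER folding, degradation and the unfolded protein response, 29 had enough counts in each line. Of these, MDA-MB-231 had 11 higher and 0 lower, and SUM159 had 4 higher and 3 lower. The background was 18.3% (higher) and 15.8% (lower) of all genes for MDA-MB-231, and 21.5% and 21.7% for SUM159. In MDA-MB-231 the ATF4 targets and the ER genes were thus above the background share of higher genes. In SUM159 the ER genes lay below the background in both directions, as did the list of 12 genes in each line. No test was run on these counts. In both lines, 1 of 18 ATF4 targets and 2 of 29 ER genes were higher, near the share of all genes, and Spearman's rho between the lines was -0.22 and 0.45. Their medians on the log2 scale were 0.20 and 0.26 for the ATF4 targets and 0.42 and 0.12 for the ER genes, in MDA-MB-231 and SUM159.

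CTH, which makes cysteine from cystathionine, was the gene of these lists at least 2-fold higher in both lines with enough counts in both. It had 6.24 and 41.7 CPM in MDA-MB-231 (DMSO, then MBZ) and 3.56 and 10.3 CPM in SUM159. These are changes of 6.60-fold and 2.90-fold (log2 fold changes 2.72, interval 2.47 to 2.99, and 1.53, interval 1.11 to 1.98), beside which its adjusted p for a shared change was 0.441 in the edgeR test. CHAC1, which breaks glutathione down, and CTH, which supplies cysteine for it, were thus both past 2-fold in each line.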

How the data were processed

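The RNA-seq libraries, 1 for each line (MDA-MB-231, SUM159) with DMSO or 1 μM MBZ, were grouped by the sample labels. The authors mapped reads to GRCh38 with STAR 2.5 and counted them per gene with HTSeq 0.6.1 in union mode, and the deposited values are whole-number counts without normalization. The annotation release and the strand setting are not given in the sources used here, and GENCODE release 44 supplied symbols, coordinates and lengths. The study's comparison without replicates needs a preset spread and was not rerun.

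Fold changes were differences of log2 CPM (edgeR 4.0.16 in R 4.3.3, prior count 0.125, TMM over the 2 libraries of a line), called at 1.5-fold with a mean of at least 10 counts. For counting intervals, the MBZ library's part of the reads of each gene was given a 95% Clopper-Pearson interval and put on the log2 scale. The shared change was tested with glmQLFit and glmQLFTest (cell line and treatment as terms, filterByExpr, TMM over 4 libraries, Benjamini-Hochberg over all genes tested, common BCV 0.323), with DESeq2 1.42.0 as an alternative. Named genes were all members, with values per library for those whose counting interval lay beyond 1.5-fold in a line (and for ATF4 and ATF5, added after their values were seen), plus list genes at least 2-fold changed the same way in both lines. The functions were tested on simulated data. The BCV simulated for the shared test was below that fitted here, so how many true changes it finds at this spread was not measured. Members, arms and lists were chosen with earlier results of these data known, so they are no independent support. Adjusted p-values over the members alone were not computed for this reason.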

Additional observations from a re-analysis of the deposited data

Results flagged for a closer look

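For 3 members the counting intervals of the log2 fold change after MBZ lay on opposite sides of 0 in the 2 lines under each of the 4 scalings tried. NUPR1 was at 1.03 in MDA-MB-231 and -0.92 in SUM159. CANX was at 0.66 in MDA-MB-231 and -0.62 in SUM159. SEL1L was at 0.92 in MDA-MB-231 and -0.55 in SUM159. With TMM within each line, 13 members had intervals on opposite sides of 0, so for the other 10 this depended on the scaling. With 1 library per condition the difference between the lines was not tested.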

How the results depend on the processing

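With 1 library per condition, the spread between cultures is unknown, and depth limits ASNS, VLDLR, STC2 and CHAC1 the most, which had under 100 counts in at least 1 library. TMM over the 4 libraries, DESeq2 size factors, a prior count of 2 and no count minimum changed no count by more than 1.5 times. None of them moved a median of an arm by as much as the median half-width of its members' counting intervals. With total counts alone, the median log2 fold changes of the ATF4 arm were 1.25 in MDA-MB-231 and 0.88 in SUM159, those of the ER arm 1.20 and 0.29, and the counts of lower members were 0 and 1 in the ATF4 arm (MDA-MB-231 and SUM159), 0 for both lines together, and 0 in the ER arm of SUM159, with 0 ER arm genes opposite. With a mean of at least 100 counts, the ATF4 arm medians were 0.67 and 0.36. At a fold change of at least 2, the ATF4 arm had 11 higher and 0 lower members in MDA-MB-231, 7 higher and 0 lower in SUM159, 0 lower in both lines and 0 opposite, and the ER arm had 8 higher members in MDA-MB-231, 1 higher and 0 lower in SUM159, 1 higher in both lines and 0 opposite. With counting intervals wholly beyond 1.5-fold, the ATF4 arm had 12 higher and 0 lower members in MDA-MB-231, 8 higher and 1 lower in SUM159 and 0 lower in both. Without ASNS, an alternative chosen after seeing the data, its medians were 0.93 and 0.52. The shared test called 0 members higher, against 4 with DESeq2's Wald test, which called 45 genes higher in all, and 4 without a filter, which called 153. For single members, total counts alone moved 36 of 41 fold changes in MDA-MB-231 and 38 in SUM159 beyond counting error, and 0 of the differences between the lines. That 0 follows from the scaling itself, which shifts all genes of a line alike, by 0.27 in MDA-MB-231 and 0.30 in SUM159. DESeq2 size factors moved 9 fold changes in MDA-MB-231 and 5 differences. No member past 1.5-fold changed direction under these scalings. The cause of these changes was not tested. No paired analysis was possible by replicate number, because the 4 libraries share the same one. The shared test is blocked by cell line, so that it compares MBZ with DMSO within each line, and without that term 0 members were called.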
